A study of Homo sapiens with 9 samples.

Results

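Long noncoding RNAs (lncRNAs) were followed through the transcriptomes of ES-2 cells, an established human ovarian cancer line, in 9 libraries. 6 lncRNAs are described, out of 32997 rows in the table of gene levels, 8722 of which GENCODE release 29 annotates as lncRNA genes. RP11-37C7.1 and RGMB-AS1 were selected on their RPKM levels in these libraries, being lower in both overexpression groups than with the vector, and MALAT1, NEAT1, PVT1 and KCNQ1OT1 were selected as abundant nuclear lncRNAs. Each group held 3 libraries: cells overexpressing OTUB2, which encodes a deubiquitinating enzyme, cells overexpressing SNX29P2, annotated as a pseudogene of the sorting nexin gene SNX29, and cells with an empty vector. Nothing else in the labels separates the groups: all are the same cell line, grown in RPMI-1640 with serum and otherwise untreated. The promoter of the transgenes was not given in the sources used here, nor whether the cells were clones or pools. Separate cultures behind the 3 libraries are not named in the labels, so p-values cover the spread between libraries alone, which may be technical.

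OTUB2 averaged 39.5 ± 2.70 RPKM in OTUB2 cells and 1.17 ± 0.133 RPKM in vector cells, and SNX29P2 averaged 47.9 ± 7.04 RPKM in SNX29P2 cells and 0.0304 ± 0.0336 RPKM in vector cells (SD, n = 3 each). RPKM are reads per kilobase of exon length, scaled to the reads in genes of each library. The libraries held 38504854 to 48551215 reads in genes, as recovered from the deposited values. Among epithelial markers, KRT18 was at 101 to 147 RPKM and KRT8 at 25.7 to 36.5 RPKM, while EPCAM was at 0 to 0.0192 RPKM and KRT19 at no more than 0.0560 RPKM. The mesenchymal marker VIM was at 974.9 to 1145 RPKM. Defining markers of leukocytes (PTPRC, CD3E, CD14) were at no more than 0.475 RPKM in any library. Of the endothelial markers, PECAM1 and VWF were at or near 0, while CDH5 was at 17.6 to 23.6 RPKM.

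Long noncoding RNAs are transcripts that carry no long reading frame, and many stay in the nucleus. MALAT1 gathers at nuclear speckles, which store splicing factors, and NEAT1 forms the scaffold of paraspeckles. KCNQ1OT1 is transcribed from the paternal copy of an imprinted domain and silences its neighbours there, and PVT1 lies beside the oncogene MYC and is often amplified together with it. RGMB-AS1 runs antisense to RGMB, a co-receptor for bone morphogenetic proteins. The known 3′ ends of MALAT1 and of the long form of NEAT1 are not made by ordinary polyadenylation: RNase P cuts just upstream of a tRNA-like RNA, and a stretch of genomically encoded A folds into a triple helix that protects the end.

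The row named RP11-37C7.1 holds 3 exons on the minus strand of chromosome 15 (39770559 to 39801333, GRCh38), 318 bases in all, and GENCODE 29 lists it as AC023908.2, a processed transcript. Its exons, from the GENCODE 29 transcripts, are shown because every one of their bases also belongs to a protein-coding gene on the same strand.
RP11-37C7.1 exon 1: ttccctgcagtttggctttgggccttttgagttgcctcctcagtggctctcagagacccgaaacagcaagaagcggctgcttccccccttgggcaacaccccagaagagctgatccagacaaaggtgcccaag
RP11-37C7.1 exon 2: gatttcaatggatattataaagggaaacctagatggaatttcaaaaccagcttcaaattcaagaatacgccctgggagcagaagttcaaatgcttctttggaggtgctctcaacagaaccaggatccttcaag
RP11-37C7.1 exon 3: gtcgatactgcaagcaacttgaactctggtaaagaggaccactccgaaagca
Exon 1 (39801201 to 39801333) lies wholly within coding sequence of GPR176, an orphan G protein-coupled receptor. Exon 2 (39776399 to 39776531) lies in an exon of FSIP1, a gene of the sperm fibrous sheath, with 126 of its 133 bases coding, and the 52 bases of exon 3 (39770559 to 39770610) are all FSIP1 coding sequence. The row therefore joins an exon of GPR176 to exons of FSIP1, and none of its bases is its own.

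RGMB-AS1 lies on the minus strand of chromosome 5 (98769618 to 98773469), with 2344 exonic bases, and lies wholly within the span of the RGMB row on the plus strand (98768650 to 98798643). Its first base is 194 bases from the RefSeq start of RGMB (98773663), which is inside that span. The window around this start, chr5:98773413-98773712 on the plus strand (RefSeq, GRCh38.p14), shows the 2 starts facing away from each other, and the 57 capitals are the bases that open RGMB-AS1 on the other strand.
RGMB upstream window: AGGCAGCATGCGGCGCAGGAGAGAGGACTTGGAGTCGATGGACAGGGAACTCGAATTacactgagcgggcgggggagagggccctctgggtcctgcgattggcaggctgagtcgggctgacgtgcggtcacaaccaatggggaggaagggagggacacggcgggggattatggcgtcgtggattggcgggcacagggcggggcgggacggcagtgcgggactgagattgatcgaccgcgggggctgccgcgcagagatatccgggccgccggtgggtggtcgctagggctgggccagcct
Further inside, 363 bases of RGMB-AS1, or 15.5% of its exons, are also exonic in RGMB on the opposite strand.

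MALAT1 (65497762 to 65506516, 8755 bases) and NEAT1 (65422774 to 65445540, 22767 bases) each form 1 exon block on the plus strand of chromosome 11. The bases before the RNase P cut are shown for both because these lncRNAs share this unusual kind of end. Capitals mark the longest run of A in the last 20 bases.
MALAT1 before mascRNA: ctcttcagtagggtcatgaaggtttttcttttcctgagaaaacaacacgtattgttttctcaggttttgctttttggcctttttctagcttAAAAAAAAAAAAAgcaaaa
mascRNA: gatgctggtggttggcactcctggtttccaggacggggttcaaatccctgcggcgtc
NEAT1 3′ end: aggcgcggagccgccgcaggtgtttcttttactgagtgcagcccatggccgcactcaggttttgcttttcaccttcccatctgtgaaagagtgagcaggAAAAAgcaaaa
The MALAT1 run held 13 A and the NEAT1 run held 5 A, and both were followed by the same 6 bases. The tRNA-like RNA cut from MALAT1, mascRNA, occupies chr11:65506117-65506173, inside the annotated MALAT1 row. 1 row of the table joins it to menRNA, the tRNA-like RNA after NEAT1, and this 115-base row had 0 to 7 reads per library.

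Of the 6 lncRNAs, RP11-37C7.1 had the lowest share of its vector level in OTUB2 cells. Its level was 9.86, 10.3 and 9.45 RPKM with OTUB2, 10.3, 12.5 and 10.995 RPKM with SNX29P2, and 15.3, 16.8 and 14.99 RPKM with the vector. Every overexpression library lay below every vector library, and the OTUB2 and SNX29P2 libraries overlapped. These values chose the gene, so they are a description without a test. In these bulk libraries, fewer cells with an RNA and less RNA per cell cannot be told apart. OTUB2 cells averaged 9.87 ± 0.425 RPKM and SNX29P2 cells 11.3 ± 1.14 RPKM, which were 62.8% and 71.7% of the 15.7 ± 0.978 RPKM of vector cells (SD, n = 3 each). The log2 difference, on the log2(RPKM + 0.1) scale used throughout, was -0.66 for OTUB2 and -0.48 for SNX29P2 against the vector. The level rests on 133, 159 and 120 reads with OTUB2, 150, 159 and 165 reads with SNX29P2 and 208, 206 and 197 reads with the vector.

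RGMB-AS1 showed the same order of groups. Its levels were 4.70, 5.24 and 5.03 RPKM in the OTUB2 libraries, 5.71, 5.81 and 5.78 RPKM in the SNX29P2 libraries, and 8.21, 8.75 and 6.53 RPKM in the vector libraries. No library of one group entered the range of another, and the 3 SNX29P2 libraries were nearly equal while the vector libraries were the most spread. Group means were 4.99 ± 0.273 RPKM with OTUB2, 5.77 ± 0.0492 RPKM with SNX29P2 and 7.83 ± 1.16 RPKM with the vector, which put OTUB2 cells at 63.7% and SNX29P2 cells at 73.6% of the vector mean. The log2 differences were -0.63 and -0.42, again values that chose the gene. RGMB-AS1 was covered by 467 to 821 reads per library.

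Both genes belong to the 404 of 16533 tested genes, or 2.44%, in which all 6 overexpression libraries lay below all 3 vector libraries; among tested lncRNA rows it was 59 of 3068, or 1.92%. Separation from the vector in the lower direction was found for 4.91% of tested genes with OTUB2 and 5.53% with SNX29P2. A log2 difference as low as that of RP11-37C7.1 was reached by 1.49% of tested genes in OTUB2 against vector and by 2.66% in SNX29P2 against vector. For RGMB-AS1 these shares were 1.7% and 3.43%. Because the rule used these contrasts, nothing is read from the shares. Both comparisons use the same vector libraries, so they are not independent of each other.

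**Figure D1:**
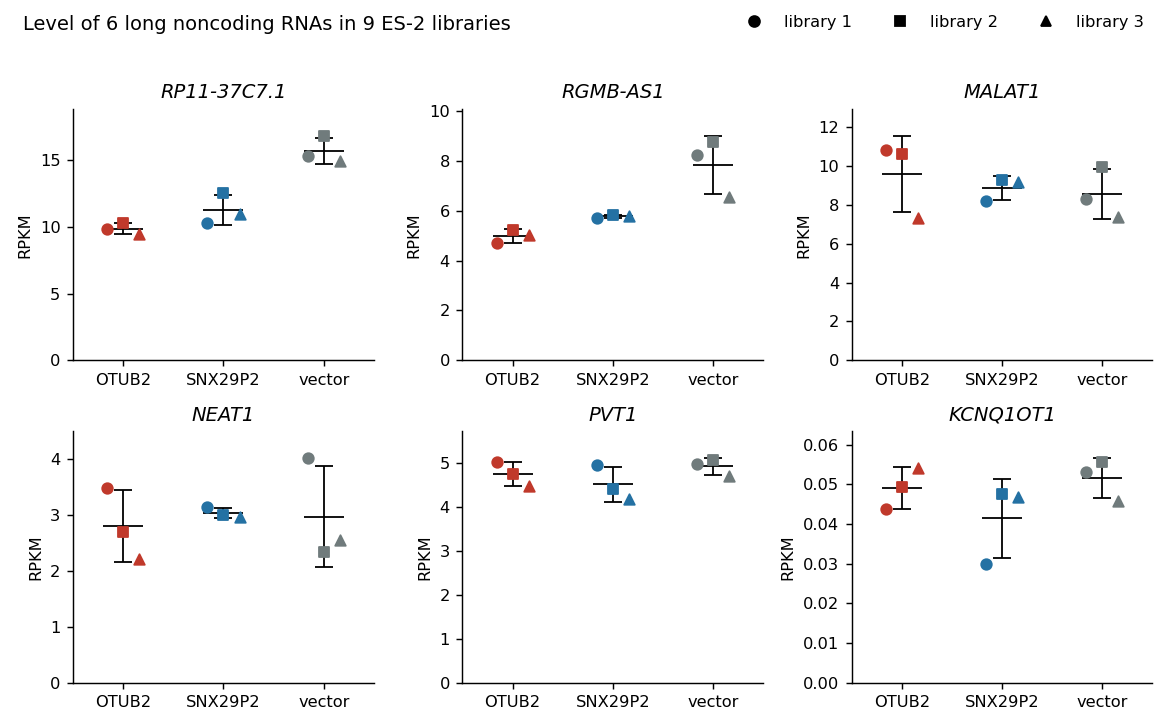
Level of each lncRNA in RPKM (vertical axes, from 0) in OTUB2, SNX29P2 and vector libraries; symbols give the library number, horizontal lines the group mean and bars the SD of 3 libraries. RP11-37C7.1 and RGMB-AS1 are lower in all 6 overexpression libraries than in the 3 vector libraries, while the groups overlap for MALAT1, NEAT1, PVT1 and KCNQ1OT1.

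The genes that share bases with these lncRNAs were read beside them. GPR176 was at 5.77, 6.67 and 5.997 RPKM with OTUB2, 5.83, 7.13 and 5.24 RPKM with SNX29P2, and 6.44, 9.73 and 7.11 RPKM with the vector. The groups overlapped, and vector library 2 was the highest of all. By limma with Benjamini-Hochberg adjustment over all genes tested, its log2 difference was -0.31 (SE 0.159, adjusted p = 0.780) for OTUB2 and -0.34 (SE 0.159, adjusted p = 0.628) for SNX29P2 against the vector, so neither passed 0.05. AC023908.1, a row of 1413 bases that lies in GPR176, had 8.66, 9.01 and 8.10 RPKM with OTUB2, 8.03, 9.57 and 7.36 RPKM with SNX29P2 and 9.44, 14.96 and 10.8 RPKM with the vector. It was lower in all 3 OTUB2 libraries than in any vector library, while the SNX29P2 libraries overlapped the vector; log2 differences were -0.42 (adjusted p = 0.704) and -0.47 (adjusted p = 0.534).

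FSIP1, which holds exons 2 and 3 of RP11-37C7.1, was near the floor of the table. It averaged 0.311 RPKM with OTUB2, 0.294 RPKM with SNX29P2 and 0.304 RPKM with the vector, and did not reach the level needed for testing. FSIP1 as a whole had 25 to 46 reads per library, fewer than the 120 to 208 reads of RP11-37C7.1, and GPR176 had 1179 to 1844 reads. The ratio of RP11-37C7.1 to GPR176 in RPKM was 1.54 to 1.71 with OTUB2, 1.76 to 2.10 with SNX29P2 and 1.73 to 2.38 with the vector, so the OTUB2 libraries lay below the others and the SNX29P2 and vector libraries overlapped. RP11-37C7.1 had 87 to 181 reads per library more than the whole of FSIP1. If a shared read counted for every row it touched, at least that excess lay in exon 1, within GPR176 coding sequence. Whether reads were counted so was not given. How much of the RP11-37C7.1 signal comes from a transcript of its own cannot be told apart from GPR176 and FSIP1 in gene totals. The only other listed gene within 100 kb, RP11-37C7.2, was at 0 in OTUB2 and vector cells and averaged 0.0294 RPKM in SNX29P2 cells.

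RGMB, the protein-coding partner of RGMB-AS1, had 14.2, 14.6 and 15.5 RPKM with OTUB2, 15.5, 16.3 and 16.1 RPKM with SNX29P2, and 17.7, 20.8 and 18.4 RPKM with the vector. All 6 overexpression libraries were below the vector libraries here too, and OTUB2 library 3 reached the lowest SNX29P2 library. The log2 difference was -0.36 (SE 0.0751, limma adjusted p = 0.475) for OTUB2 and -0.24 (SE 0.0751, limma adjusted p = 0.510) for SNX29P2 against the vector, and neither passed the threshold after adjustment. RGMB-AS1 was at 0.324 to 0.359 of the RGMB level with OTUB2, 0.356 to 0.368 with SNX29P2 and 0.354 to 0.465 with the vector. These ratios overlapped between all groups. Whether the authors' counting used the strand was not given in the sources used here, so reads in the 363 shared bases cannot be assigned to one of the genes. AC008522.1, the next listed gene at 19.4 kb, averaged 18.3, 20.0 and 22.2 RPKM in OTUB2, SNX29P2 and vector cells, with log2 differences of -0.27 (adjusted p = 0.688) and -0.15 (adjusted p = 0.721).

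**Figure D2:**
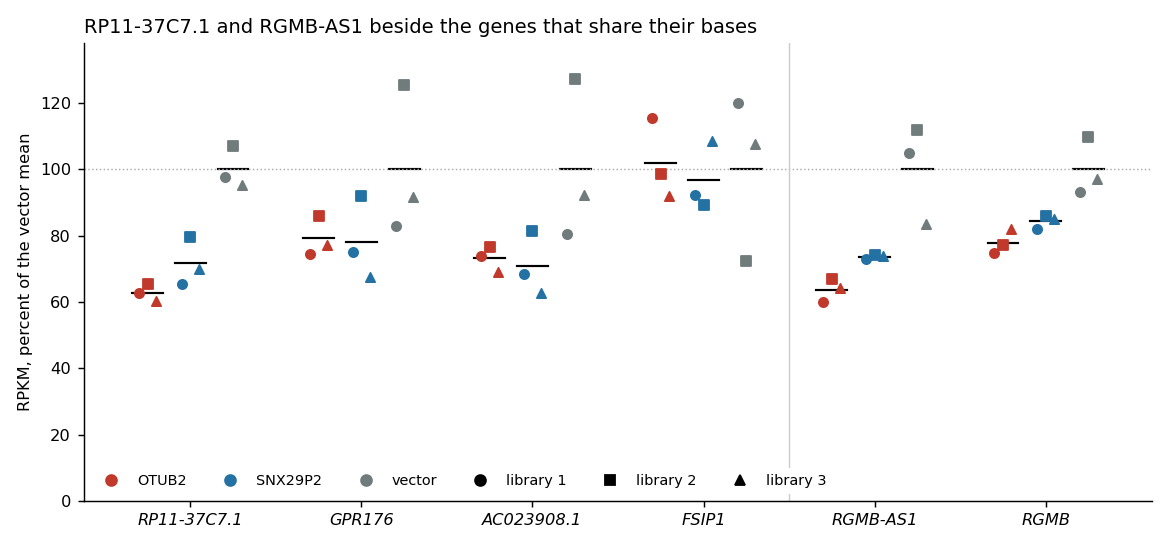
RPKM of RP11-37C7.1 and RGMB-AS1 and of the genes that share their bases, as percent of each gene's vector mean (vertical axis, from 0); colours give OTUB2, SNX29P2 and vector, symbols the library number, black lines the group means and the dotted line 100%. OTUB2 cells average 62.8% for RP11-37C7.1 and 79.2% for GPR176, and 63.7% for RGMB-AS1 and 77.9% for RGMB, while FSIP1 stays close to 100% on few reads.

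The difference between the overexpression groups was not itself used in choosing any of the lncRNAs. For RP11-37C7.1 and RGMB-AS1 the levels in both groups were used, since both had to be low. Their tests between OTUB2 and SNX29P2 are therefore not wholly free of the selection. None of the 5 that could be tested differed between OTUB2 and SNX29P2 cells at an adjusted p under 0.05, a threshold that 4 of 16533 genes passed (0.0242%). None had an unadjusted p under 0.05 either, and limma voom on recovered reads called none. RP11-37C7.1 was 0.19 lower in OTUB2 cells on the log2 scale (difference -0.19, SE 0.0865, 95% interval -0.38 to 0.01, limma adjusted p = 1.00), and the libraries overlapped. RGMB-AS1 differed by -0.21 (SE 0.107, 95% interval -0.45 to 0.03, limma adjusted p = 1.00). Its 3 OTUB2 libraries lay below its 3 SNX29P2 libraries, as did those of 4.05% of tested genes. The intervals allow OTUB2 cells to hold 0.769 to 1.01 of the SNX29P2 level of RP11-37C7.1 and 0.733 to 1.02 of that of RGMB-AS1.

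MALAT1, the speckle lncRNA, was at 10.8, 10.6 and 7.34 RPKM with OTUB2, 8.16, 9.28 and 9.16 RPKM with SNX29P2, and 8.30, 9.94 and 7.38 RPKM with the vector. OTUB2 libraries 1 and 2 were the highest and OTUB2 library 3 the lowest of all 9, so the OTUB2 group spanned the range of the others. Means were 9.58 ± 1.94 RPKM with OTUB2, 8.87 ± 0.614 RPKM with SNX29P2 and 8.54 ± 1.29 RPKM with the vector (SD, n = 3 each). MALAT1 did not pass the threshold in OTUB2 against vector (log2 difference 0.15, 95% interval -0.20 to 0.51, limma adjusted p = 0.907), which 0.0181% of tested genes passed. Nor did it in SNX29P2 against vector (0.06, 95% interval -0.29 to 0.41, limma adjusted p = 0.950), which 0.0363% of tested genes passed. Between OTUB2 and SNX29P2 the difference was 0.09 (95% interval -0.26 to 0.44, limma adjusted p = 1.00). The OTUB2 difference was 0.33 without OTUB2 replicate 3 and 0.0553 without vector replicate 3, the highest and lowest values with 1 library left out. The SNX29P2 difference was -0.036 without vector replicate 3, and the one between OTUB2 and SNX29P2 was -0.0041 without OTUB2 replicate 1.

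Part of the MALAT1 locus is listed a second time. AP000769.1, annotated on the opposite strand, covers 1589 bases that are all within MALAT1, 18.1% of its length, and had 23.3 to 26.2% as many reads as MALAT1 in each library. Its level was 13.9, 13.7 and 9.97 RPKM with OTUB2, 10.8, 12.3 and 13.1 RPKM with SNX29P2, and 11.8, 12.8 and 10.6 RPKM with the vector. OTUB2 library 3 was again the lowest, and the groups overlapped. AP000769.7, a second opposite-strand row of 396 bases within MALAT1, had 0 to 9 reads. Without a stated strand setting, reads of MALAT1 and of AP000769.1 cannot be told apart.

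NEAT1, the paraspeckle scaffold, had 3.48, 2.70 and 2.22 RPKM with OTUB2, 3.13, 2.99 and 2.97 RPKM with SNX29P2, and 4.01, 2.34 and 2.55 RPKM with the vector. The SNX29P2 libraries were close together inside the wide ranges of the other groups. Library 1 was the highest in every group, as it was for 8.93% of tested genes. Group means were 2.80 ± 0.639 RPKM with OTUB2, 3.03 ± 0.0916 RPKM with SNX29P2 and 2.97 ± 0.905 RPKM with the vector. The log2 difference against the vector was -0.07 for OTUB2 (95% interval -0.53 to 0.40, limma adjusted p = 0.983) and 0.07 for SNX29P2 (95% interval -0.40 to 0.53, limma adjusted p = 0.960). OTUB2 against SNX29P2 gave -0.13 (95% interval -0.60 to 0.33, limma adjusted p = 1.00). Single libraries turned these directions: OTUB2 against vector was 0.0845 without OTUB2 replicate 3 and 0.16 without vector replicate 1, SNX29P2 against vector was -0.077 without vector replicate 2 and -0.018 without vector replicate 3, and OTUB2 against SNX29P2 was 0.017 without OTUB2 replicate 3.

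3 short segments near the 5′ end of NEAT1 have rows of their own, named NEAT1_1, NEAT1_2 and NEAT1_3 (120, 105 and 159 bases). They are not the short and long isoforms that carry similar names. Together they cover 1.69% of NEAT1 but had 25.5 to 32.0% as many reads as the whole gene in each library. NEAT1_1 was at 69.5, 46.9 and 44.7 RPKM with OTUB2, 64.3, 60.3 and 56.2 RPKM with SNX29P2, and 97.2, 44.8 and 46.6 RPKM with the vector. Reads were thus far denser at this end than along the 22767 bases, which include the stretch present in the long isoform alone, and the single RPKM value of NEAT1 averages over both. How reads that only partly overlap so short a row, or touch several rows, were counted was not given, so the size of this excess is uncertain. Library 1 was the highest in each group for NEAT1_1 as well. None of the 3 segments passed the threshold in any comparison, and the smallest adjusted p was 0.895, for NEAT1_3 in OTUB2 against vector (log2 difference -0.25).

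Of the 5 lncRNAs tested among the 6, PVT1 had the smallest spread within groups. It lies on the plus strand of chromosome 8 (127794533 to 128101253), with 5493 exonic bases. Its levels were 5.03, 4.74 and 4.47 RPKM with OTUB2, 4.95, 4.41 and 4.18 RPKM with SNX29P2, and 4.98, 5.06 and 4.71 RPKM with the vector. All groups overlapped, and the lowest value was that of SNX29P2 library 3. Means were 4.75 ± 0.279 RPKM with OTUB2, 4.51 ± 0.395 RPKM with SNX29P2 and 4.92 ± 0.183 RPKM with the vector. The log2 difference was -0.05 for OTUB2 against vector (95% interval -0.25 to 0.15, limma adjusted p = 0.961), -0.12 for SNX29P2 against vector (95% interval -0.32 to 0.07, limma adjusted p = 0.754) and 0.07 for OTUB2 against SNX29P2 (95% interval -0.12 to 0.27, limma adjusted p = 1.00).

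MYC, 53.1 kb from PVT1, averaged 64.7 ± 5.45 RPKM with OTUB2, 65.6 ± 5.79 RPKM with SNX29P2 and 69.6 ± 2.07 RPKM with the vector. Its log2 difference was -0.11 (adjusted p = 0.861) and -0.09 (adjusted p = 0.825) against the vector, within the spread between libraries. 4 rows share exonic bases with PVT1. The same-strand segments PVT1_1 and PVT1_3 did not pass in any comparison, and neither did RP11-55J15.2 or RNU4-25P on the opposite strand. RNU4-25P, a U4 pseudogene, had the smallest limma adjusted p of the 4 at 0.435, in OTUB2 against vector. It averaged 6.50 RPKM in OTUB2 cells, 7.35 RPKM in SNX29P2 cells and 8.75 RPKM in vector cells. All 6 overexpression libraries lay below the vector libraries for RNU4-25P, as they did for 2.44% of tested genes.

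KCNQ1OT1 went against its selection as an abundant lncRNA. Its levels were 0.0437, 0.0494 and 0.0541 RPKM with OTUB2, 0.0300, 0.0475 and 0.0467 RPKM with SNX29P2, and 0.0532, 0.0555 and 0.0459 RPKM with the vector, and 35.6% of lncRNA rows were lower. The groups overlapped, with SNX29P2 library 1 the lowest. It did not reach the 0.5 RPKM in 3 libraries needed for testing. Because the row is 91667 bases long (chromosome 11, 2608328 to 2699994, minus strand), these values still stand for 126 to 220 reads per library. Fitted on those reads with limma voom over all 32997 rows, an alternative added after seeing the data, its log2 difference was -0.08 for OTUB2 against vector (95% interval -0.49 to 0.34, adjusted p = 0.983) and -0.35 for SNX29P2 against vector (95% interval -0.78 to 0.08, adjusted p = 0.842), while 0.0121% and 0.0364% of all rows passed. Between OTUB2 and SNX29P2 it was 0.28 (95% interval -0.15 to 0.71, adjusted p = 0.975), where 0.0121% of rows passed. KCNQ1, the potassium channel gene that it overlaps on the other strand, had 0 to 6 reads, and the opposite-strand segment rows KCNQ1OT1_1, KCNQ1OT1_2, KCNQ1OT1_3 and KCNQ1OT1_5 had 0 to 6 reads.

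**Figure D3:**
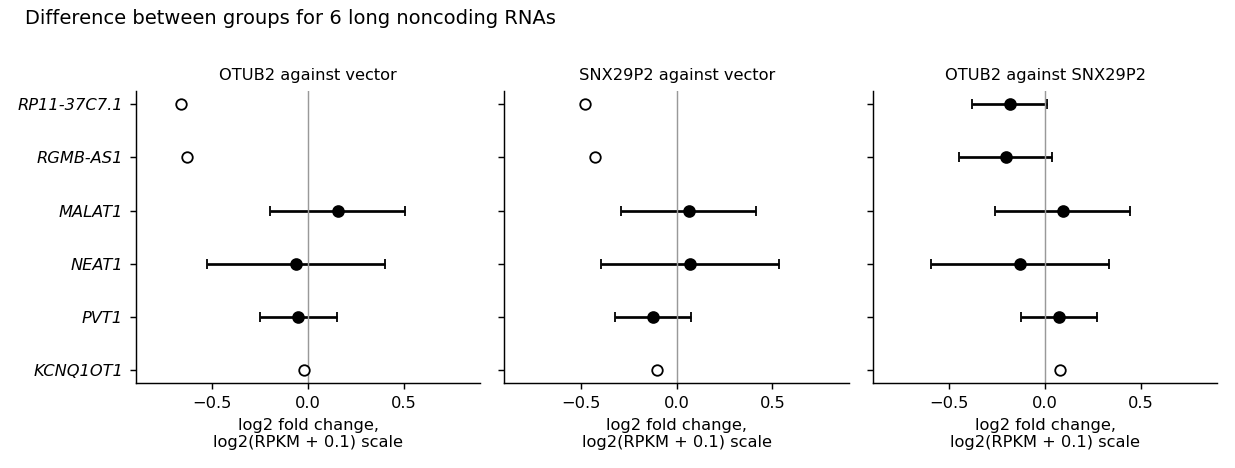
Log2 differences of 6 lncRNAs on the log2(RPKM + 0.1) scale (horizontal axes) for OTUB2 and for SNX29P2 against the vector and between OTUB2 and SNX29P2; filled points carry 95% limma intervals, and open points are values given without a test. Each interval drawn includes 0, and the open points of RP11-37C7.1 and RGMB-AS1 lie between -0.66 and -0.42.

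In order of mean level over all libraries, the 6 ran RP11-37C7.1 at 12.3 RPKM, MALAT1 at 8.996, RGMB-AS1 at 6.20, PVT1 at 4.73, NEAT1 at 2.93 and KCNQ1OT1 at 0.0473 RPKM. Neighbours overlapped in their library values from RP11-37C7.1 through PVT1, while NEAT1 (at most 4.01 RPKM) stayed below PVT1 (at least 4.18 RPKM) and KCNQ1OT1 stayed far below NEAT1. Of the 8722 lncRNA rows, 94.1% were lower than RP11-37C7.1, 92.3% lower than MALAT1 and 84.5% lower than NEAT1. Because every base of RP11-37C7.1 is shared with GPR176 or FSIP1, its place in this order may be that of reads from those genes. The 10 highest lncRNAs of a panel of well-known ones all exceeded each of the 6. They ran from NORAD, which binds Pumilio proteins, at 58.0 RPKM, through HIF1A-AS1 at 56.1 RPKM and the snoRNA host genes SNHG6 at 53.4, SNHG1 at 38.2 and SNHG8 at 32.1 RPKM to GAS5 at 30.8, ZFAS1 at 28.6, SNHG16 at 23.2, DANCR at 22.9 and SNHG7 at 22.7 RPKM. Bases that these 10 share with other genes were not looked up, so their levels may hold reads from other genes too. The extracts were total RNA, and whether poly(A) selection or ribosomal depletion followed was not given.

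**Figure D4:**
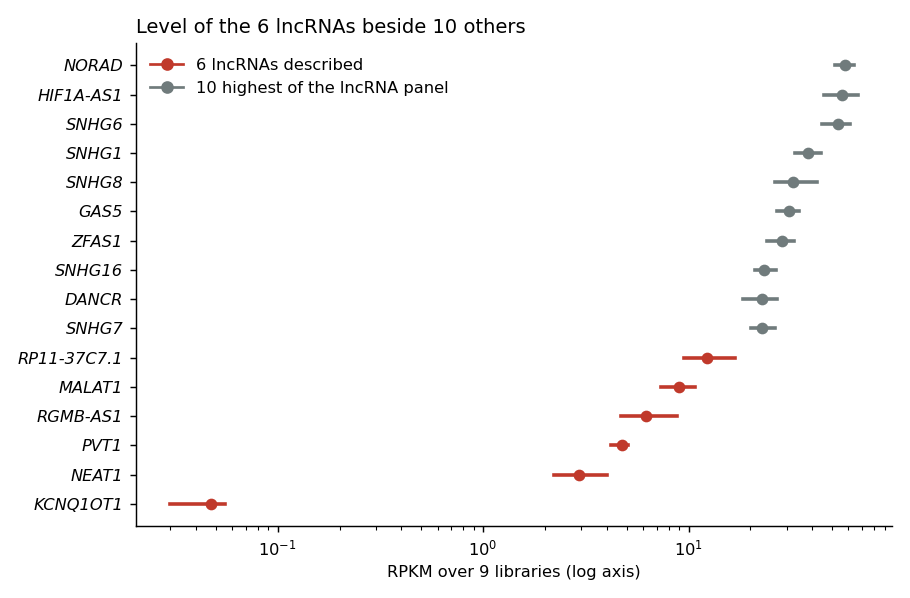
Mean level (points) and range over 9 libraries (lines) in RPKM on a log axis, for the 6 lncRNAs described and the 10 highest of a panel of well-known lncRNAs. All 10 panel genes lie above the 6, and KCNQ1OT1 at 0.0473 RPKM lies lowest.

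The 6 differed in how far libraries of a group scattered. The SD within groups on the log2 scale was 0.225 for MALAT1 and 0.296 for NEAT1, larger than that of 89.3% and 85.1% of tested genes of like level (within 0.5 in mean log2 level). It was 0.103 for RP11-37C7.1 and 0.134 for RGMB-AS1, close to the middle of genes of like level, and 0.0906 for PVT1, where 16.01% of such genes had a smaller SD. RP11-37C7.1, RGMB-AS1 and GPR176 were highest in library 2 of every group, as were 14.2% of tested genes. The part of the library number in these levels was not tested. MALAT1, NEAT1 and KCNQ1OT1 also had an even number of reads in 9 of 9 libraries, while RP11-37C7.1 and RGMB-AS1 were even in 4 and PVT1 in 3. Over the table, 59.1% of values under 1000 reads were even, so reads need not be single molecules and counting intervals are not given.

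For each lncRNA the genes with the most similar levels over the 9 libraries were found, as a description of likeness that includes the group differences and shared library depth. The genes named had the highest r of 14096 candidates (14097 for KCNQ1OT1), so a high r was selected for and was not tested. RP11-37C7.1 was nearest to CA9, a carbonic anhydrase (Pearson r = 0.97, Spearman rho = 0.90), and to PTGS2, a prostaglandin synthase (r = 0.95, rho = 1.00). RGMB-AS1 was nearest to AC009133.22 (r = 0.98, rho = 0.93) and BBS1, a cilium gene (r = 0.97, rho = 0.88). RP11-37C7.1 and RGMB-AS1 had r = 0.93 and rho = 0.97 with each other. Both were chosen for the same difference between groups, which builds in a high correlation, so nothing is read from it. MALAT1 was nearest to AP000769.1 inside it (r = 0.96, rho = 0.95) and the small nucleolar RNA gene SNORA32 (r = 0.93, rho = 0.93). NEAT1 was nearest to its own segment NEAT1_1 (r = 0.96, rho = 1.00), then to BTN2A3P (r = 0.95, rho = 0.88). PVT1 was nearest to the tetraspanin gene CD63 (r = 0.97, rho = 0.92) and RP1-92C8.3 (r = 0.96, rho = 0.92), and KCNQ1OT1 to the transcription factor gene SOX4 (r = 0.95, rho = 0.98) and FARP1-AS1 (r = 0.92, rho = 0.82). MALAT1 and NEAT1, neighbours on chromosome 11, had r = 0.21 and rho = 0.30.

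Neighbours, protein partners and processing factors were gathered in 8 lists of 111 genes, of which 91 could be tested. None passed an adjusted p of 0.05 by limma in any comparison, and at an unadjusted p under 0.05 there were 5 genes for OTUB2 and 9 for SNX29P2 against the vector, and 3 between OTUB2 and SNX29P2. These are 5.49%, 9.89% and 3.3% of the 91 genes, near the 6.73%, 8.21% and 2.43% of all 16533 genes tested. Limma voom on recovered reads called none of the 91. Paraspeckle proteins, the partners of NEAT1, had 13 of 19 tested genes higher with OTUB2 (median log2 difference 0.01) and 15 of 19 higher with SNX29P2 (median 0.07), against a median of 0.01 over all genes in both. Over all genes tested, 8597 of 16533 were higher with OTUB2 (52%) and 8865 with SNX29P2 (53.6%), and none of the direction counts here was tested. The paraspeckle genes with the smallest p were NUDT21, a cleavage factor subunit, and MATR3, a nuclear matrix protein gene. In SNX29P2 against vector both had a log2 difference of 0.18 (limma adjusted p = 0.606 and 0.644). Nuclear speckle and SR proteins, the setting of MALAT1, had 11 of 19 higher with OTUB2 (median 0.01) and 17 of 19 higher with SNX29P2 (median 0.11). PNN reached 0.14 (adjusted p = 0.597) and SRSF11 0.18 (adjusted p = 0.614) in SNX29P2 against vector.

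Factors of lncRNA 3′ processing and nuclear decay had 15 of 21 higher with OTUB2 (median 0.04) and 19 of 21 higher with SNX29P2 (median 0.06). In SNX29P2 against vector YTHDC1, a reader of m6A, stood at 0.24 (adjusted p = 0.543) and the noncanonical poly(A) polymerase gene PAPD5 at 0.29 (adjusted p = 0.602). Polycomb and imprinting factors, which KCNQ1OT1 is known to recruit, had 8 of 12 higher with OTUB2 (median 0.05) and 10 of 12 higher with SNX29P2 (median 0.13). EZH2, the methyltransferase of Polycomb complex 2, stood at 0.25 with OTUB2 (adjusted p = 0.675) and 0.31 with SNX29P2 (adjusted p = 0.488), and BMI1 at 0.27 with SNX29P2 (adjusted p = 0.502). These are differences in level on the log2 scale, and none passed the threshold. Over all genes tested, 52% were higher with OTUB2 and 53.6% with SNX29P2, and the direction counts of these lists were not tested either.

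The genes around the lncRNAs gave few tested members. In the imprinted domain of KCNQ1OT1, 4 of 13 listed genes were tested. PHLDA2, a growth-restraining imprinted gene, was at -0.49 with OTUB2 (adjusted p = 0.707) and -0.57 with SNX29P2 (adjusted p = 0.541), and CD81 at 0.03 and -0.08. Around MALAT1 and NEAT1, LTBP3 stood at -0.04 with OTUB2 (adjusted p = 0.983) and -0.24 with SNX29P2 (adjusted p = 0.693), and FRMD8 (9.25 kb from NEAT1) at 0.01 (adjusted p = 0.996) and -0.08 (adjusted p = 0.907). CMB9-22P13.1, 31.0 kb from MALAT1, averaged 0.506 RPKM with OTUB2, 0.547 RPKM with SNX29P2 and 0.696 RPKM with the vector. Of the 10 tested genes of the RGMB-AS1 neighbourhood and RGM family, ID3, a target of bone morphogenetic protein signalling, stood at 0.53 with OTUB2 (adjusted p = 0.707) and 0.30 with SNX29P2 (adjusted p = 0.756). In the PVT1 and MYC locus, FAM84B stood at 0.05 with OTUB2 and -0.00 with SNX29P2.

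Other lncRNAs were read in the same fit. Of 108 panel lncRNAs, 64 were tested and none passed in any comparison by limma, with 2 at an unadjusted p under 0.05 for OTUB2 and 3 for SNX29P2 against the vector, and 1 between OTUB2 and SNX29P2. These are 3.12%, 4.69% and 1.56% of the 64, below the shares of all genes given above. Limma voom on recovered reads called none. The panel median was 0.01 for OTUB2 and 0.03 for SNX29P2 against the vector, beside 0.01 over all genes in each, and -0.04 between OTUB2 and SNX29P2, beside -0.00. The panel genes with the smallest p were LINC00467 and RMRP, the RNA of RNase MRP. Against the vector, the log2 difference of LINC00467 was 0.40 with OTUB2 (limma adjusted p = 0.582) and 0.43 with SNX29P2 (adjusted p = 0.488). That of RMRP was 0.64 with OTUB2 (limma adjusted p = 0.686) and 0.76 with SNX29P2 (adjusted p = 0.502). Over the 3068 tested lncRNA rows, 0 passed in OTUB2 against vector, where 214 (6.98%) had an unadjusted p under 0.05, near the 6.73% of all genes. 1 passed in SNX29P2 against vector and 1 in OTUB2 against SNX29P2, beside 6 and 4 of all 16533 genes (0.0363% and 0.0242%). In these comparisons 244 (7.95%) and 98 (3.19%) of the lncRNA rows had an unadjusted limma p under 0.05. The shares of all genes were 8.21% and 2.43%. The row that passed against the vector was RP11-231C14.7, which overlaps the SNX29P2 transgene's own gene and was named here after its value was seen.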

How the data were processed

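RNA of 9 ES-2 libraries, 3 per group, was measured. The authors deposited 1 table of RPKM for 32997 rows with exon positions and lengths, per the file headers; positions are on GRCh38, per the submitters' processing notes. Aligner, counter, strand setting and handling of shared reads were not given in the sources used here.

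Values times exon length were whole reads within 0.05 reads for 100% of values below 1000 reads, so reads were recovered, 38504854 to 48551215 per library. The 16533 genes that reached 0.5 RPKM in 3 or more libraries were tested with limma 3.58.1 (R 4.3.3, trended variance) on log2(RPKM + 0.1), with group alone in the model and all libraries in 1 fit. The call threshold was an adjusted p of 0.05 (Benjamini-Hochberg). The pseudocount understates changes of low genes. The median SE of a log2 difference in OTUB2 against vector was 0.126. The limma program was tested on simulated data.

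Rows were matched to GENCODE 29 by name or position (32372 rows, 31114 of them by position). Members and gene lists were chosen with earlier results of these data known. The text names all members and the genes overlapping them, the nearest listed gene on each side within 100 kb, up to 2 genes per list by smallest p where none was called, the 2 genes most like each member among those with a mean of at least 1 RPKM, and the 10 highest panel lncRNAs. 1 gene that this rule takes is not reported here. Sequences come from GENCODE 29 transcripts and from RefSeq promoter windows. Alternatives covered the pseudocount, the filter, scaling, the variance fit, the libraries in the fit, a replicate block and limma voom on recovered reads. Tables were made in python 3.11.15 (numpy 2.4.6, pandas 2.3.3) and plots in matplotlib 3.10.9.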

Additional observations from a re-analysis of the deposited data

How the results depend on the processing

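For the 9 counts of called genes (members, panel lncRNAs and list genes in 3 comparisons), the value was 0 in the fit reported and under each of 19 alternatives. Leaving out 1 library turned the direction of 7 values, which belong to 5 small differences of MALAT1 or NEAT1, none called. NEAT1 in OTUB2 against vector (-0.07) was 0.0845 without OTUB2 replicate 3 and 0.16 without vector replicate 1, in a range of -0.23 to 0.16. In SNX29P2 against vector NEAT1 (0.07) was -0.077 without vector replicate 2 and -0.018 without vector replicate 3, in a range of -0.077 to 0.30, and MALAT1 (0.06) was -0.036 without vector replicate 3, in a range of -0.036 to 0.18. In OTUB2 against SNX29P2 NEAT1 (-0.13) was 0.017 without OTUB2 replicate 3, in a range of -0.30 to 0.017, and MALAT1 (0.09) was -0.0041 without OTUB2 replicate 1, in a range of -0.0041 to 0.27. The cause was not tested. MALAT1 in OTUB2 against vector (0.15) ranged from 0.0553 to 0.33 with each library left out. PVT1 ranged from -0.092 to -0.0091 for OTUB2 and from -0.19 to -0.072 for SNX29P2 against the vector, and from 0.022 to 0.14 between OTUB2 and SNX29P2. RP11-37C7.1 kept its direction with each library left out, at -0.70 to -0.61 for OTUB2 and -0.56 to -0.42 for SNX29P2 against the vector, and RGMB-AS1 at -0.75 to -0.55 and -0.55 to -0.34. On recovered reads with no filter, KCNQ1OT1 moved to -0.35 in SNX29P2 against vector, from -0.10 on the RPKM scale, and to 0.28 in OTUB2 against SNX29P2, from 0.08, since the pseudocount of 0.1 exceeds its RPKM. With the replicate block the counts of called members, panel lncRNAs and list genes were again 0, and over all genes calls were 4 for OTUB2 and 9 for SNX29P2 against the vector and 4 between OTUB2 and SNX29P2, beside 3, 6 and 4 without it. Same-numbered libraries correlated at -0.0178 to 0.270 in their deviations from group means (9 pairs) and others at -0.230 to 0.0502 (18 pairs), and 9 of 9 libraries correlated best with their own number, a hint from the data and not the design.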
